A study of Mus musculus with 6 samples.

Results

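Cd82 and 9 other tetraspanin genes (Cd9, Cd63, Cd81, Cd151, Tspan3, Tspan4, Tspan9, Tspan12 and Tspan14) were followed in RNA-Seq of the tibialis anterior (TA) muscle of old mice. These 10 genes were chosen by name out of the 45777 genes of the count table, and all of them were above the filter on low counts, which kept 16188 genes. The muscles came from male C57BL/6J mice labelled 24 months old. The 3 Vehicle mice received only the carrier of DMSO and Tween, and the 3 BML-260 mice received BML-260 in that carrier at 5 mg/kg, by daily intraperitoneal injection for 1 month. BML-260 is the small molecule that the study uses against the phosphatase DUSP22. No genetic change is given for either group, the compound was given to the whole animal, and each library is the RNA of a whole muscle of 1 mouse, so that muscle fibers, stem cells, vessels, nerve and immune cells were measured together. The list was drawn up with the result for Cd82 in these same libraries known. The differences between the groups in the 10 genes are therefore given as a description, with standard errors and no test.

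Tetraspanins are small proteins that pass through the cell membrane several times and expose a short and a long loop on the outside. They have few ligands of their own and instead hold other membrane proteins together in patches, among them laminin-binding integrins, immunoglobulin superfamily proteins and metalloproteases, and several of them are abundant on extracellular vesicles. In skeletal muscle, CD82 is used as a surface marker of muscle stem cells (satellite cells), and CD9 and CD81 take part in the control of myoblast fusion. All 10 genes are also used by cells other than muscle cells.

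The long loop of a tetraspanin carries a Cys-Cys-Gly motif that defines the family. The coding sequence around it is shown for each gene, because all 10 genes carry this motif. Each run is 39 bases, 5′ to 3′, from the coding sequence of the principal transcript (GENCODE M21, GRCm38), with the codons of the motif in capitals.
Cd82: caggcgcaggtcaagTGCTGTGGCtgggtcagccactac
Cd9: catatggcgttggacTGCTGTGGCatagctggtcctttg
Cd63: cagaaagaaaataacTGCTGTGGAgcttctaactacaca
Cd81: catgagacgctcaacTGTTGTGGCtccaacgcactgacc
Cd151: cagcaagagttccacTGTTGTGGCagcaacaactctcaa
Tspan3: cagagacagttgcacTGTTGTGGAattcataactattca
Tspan4: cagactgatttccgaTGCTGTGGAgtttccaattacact
Tspan9: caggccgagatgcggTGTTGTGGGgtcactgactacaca
Tspan12: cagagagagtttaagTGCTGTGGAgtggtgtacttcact
Tspan14: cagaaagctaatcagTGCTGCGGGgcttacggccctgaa
The motif codons began between codon 145 (Cd63) and codon 159 (Tspan12), of 226 (Cd9) to 305 codons (Tspan12). Cd9, Cd63 and Cd81 had a further in-frame match outside the middle of the coding sequence, and the other 7 genes had a single match. The motif was written with 6 different codon triplets, TGCTGTGGA being used by 3 genes, and TGCTGTGGC and TGTTGTGGC by 2 genes each. In pairwise global alignment the coding sequences were otherwise well apart. The closest of the 45 pairs were Tspan4 and Tspan9, with 66.0% identical bases over 709 aligned bases, and Cd9 and Cd81, with 61.7% over 668. Cd82 was nearest to Tspan9 (61.4%) and Tspan4 (61.3%).

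The libraries held between 39522890 and 56998875 counts, and the fiber genes Acta1 and Tnnt3 had mean levels of 22566 and 19641 TPM. Vehicle replicate 3 stood apart from the other 5 libraries. All 11 macrophage markers and 5 of 6 Schwann cell markers were at their highest in it, 6 of 7 myofiber markers were at their lowest, and its TMM scaling factor was 1.20, against 0.914 to 1.02 in the others. It was also the highest library for 4 of the 10 tetraspanins (Cd82, Cd9, Cd63 and Tspan4) and the lowest for 4 (Cd151, Tspan3, Tspan9 and Tspan12), where it was the highest for 32.3% and the lowest for 31.1% of all tested genes. For this reason the values without this library are given beside the differences that rest on it.

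The levels of the 10 genes in muscle were compared in TPM, which is scaled for transcript length. Tspan3, whose product is known to associate with claudin-11 in oligodendrocytes, had the highest median over the 6 libraries at 101 TPM (range 93.7 to 121). Cd63, Cd151 and Cd81 followed with medians of 66.9, 66.4 and 57.6 TPM, and their ranges overlapped, so that these neighbours did not differ beyond their spread. In each library these 4 genes were the 4 highest. Cd9, Tspan9, Tspan4 and Tspan12 formed a lower group with overlapping ranges and medians of 13.9, 12.8, 11.3 and 9.19 TPM. Cd82 had a median of 5.03 TPM and Tspan14 a median of 4.45 TPM. The order of these 2 genes differed between the groups, as Cd82 was above Tspan14 in all 3 Vehicle libraries and below it in all 3 BML-260 libraries. Vehicle replicate 3 had the highest TPM of all libraries for 7 of the 10 genes, and its TPM values were 1.37 times as high per normalized count as the median library, against 0.901 to 1.02 times in the other 5.

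**Figure D1:**
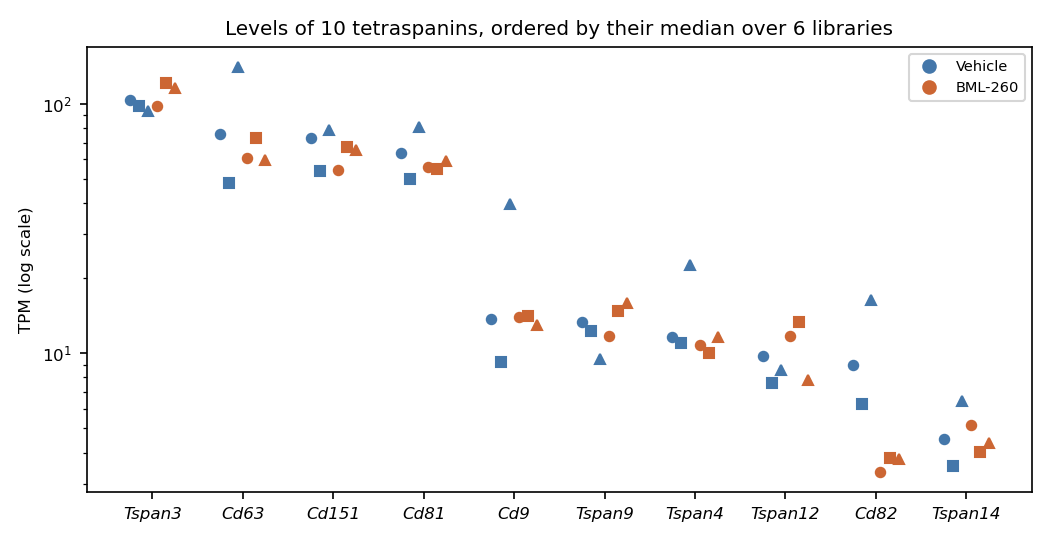
TPM of each tetraspanin in each of the 6 libraries (log axis; blue, Vehicle; orange, BML-260; circle, square and triangle, replicates 1, 2 and 3), with genes ordered by their median. Tspan3, Cd63, Cd151 and Cd81 lie above all the others in every library, and Cd82 lies at 6.25 to 16.3 TPM in the Vehicle libraries and at 3.34 to 3.82 TPM in the BML-260 libraries.

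Cd82 (gene ID 12521, chr2:93419102-93462950 on the minus strand, GRCm38.p6) showed the widest separation of the 2 groups among the 10 genes. Its normalized counts, which are counts divided by a size factor for each library, were 464, 338 and 610.5 in Vehicle replicates 1, 2 and 3 and 193, 195 and 193 in BML-260 replicates 1, 2 and 3. Every BML-260 library was below every Vehicle library, with the lowest Vehicle library still well above the highest BML-260 library. The group means were 471 ± 136 and 194 ± 1.23 (SD, n = 3 each), a 2.43-fold higher level in the Vehicle group, and the fitted log2 fold change of BML-260 over Vehicle was −1.29 (SE 0.22). Without Vehicle replicate 3 it was −1.06 (SE 0.19), and without Vehicle replicate 2, the lowest of the Vehicle libraries, −1.47 (SE 0.19). Since these are whole muscles, fewer cells that express a gene and less of its RNA per cell cannot be told apart here or in any later comparison.

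The spread of Cd82 was wider among the Vehicle libraries. Its coefficient of variation was 29.0% among Vehicle libraries and 0.633% among BML-260 libraries. The 3 BML-260 libraries held 223, 195 and 158 counts of Cd82, for which counting error alone gives a coefficient of variation of 6.70% to 7.96% per library. The near identity of the BML-260 values is thus closer than the counts can resolve. In 8 of the 10 genes the SD of the log2 normalized counts was larger among the Vehicle libraries, as it was for 70.3% of all tested genes.

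On the TPM scale Cd82 was at 8.95, 6.25 and 16.3 in the Vehicle libraries and at 3.34, 3.82 and 3.77 in the BML-260 libraries, again without overlap. Its share of the summed TPM of the 10 tetraspanins was 2.37, 2.08 and 3.28% in the Vehicle libraries and 1.02, 1.01 and 1.06% in the BML-260 libraries. The summed normalized count of all 10 genes overlapped between the groups, at 15000.2 to 17541 in Vehicle and 16523 to 17134 in BML-260. Cd82 overlaps the noncoding gene Gm10804 on the opposite strand in the annotation, and how the counting treated strand is not given in the sources used here.

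**Figure D2:**
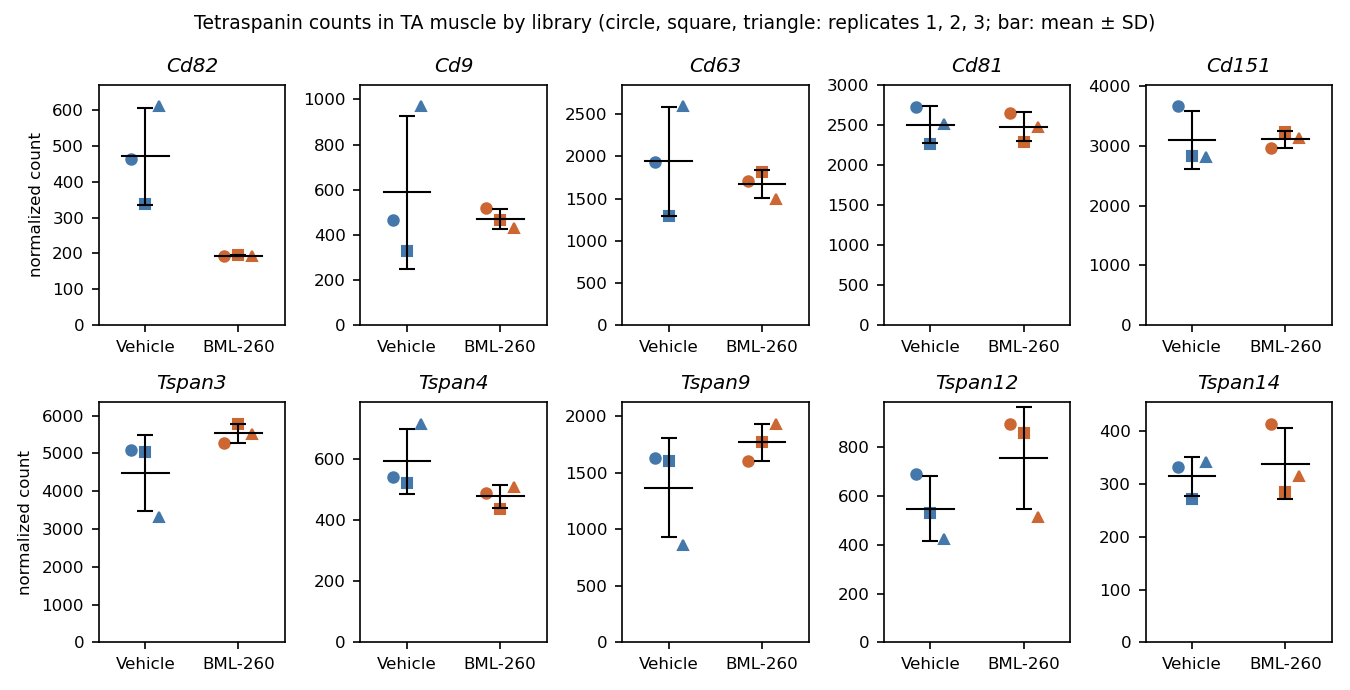
Normalized counts of the 10 tetraspanins in each library, Vehicle (blue) on the left and BML-260 (orange) on the right of each panel, with the group mean and SD (n = 3) in black; all axes start at 0. Cd82 separates into 338 to 610.5 against 193 to 195, while Cd9, Cd63, Cd81, Cd151, Tspan9, Tspan12 and Tspan14 overlap between the groups.

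Cd9 and Cd81 encode partners of the immunoglobulin superfamily proteins EWI-F and EWI-2 and are the tetraspanins best known for roles in cell fusion. Cd9 (chr6:125460266-125494760, minus strand) was at normalized counts of 467, 328 and 969 in Vehicle and 519, 464 and 429 in BML-260. The BML-260 values lay inside the range of the Vehicle values, whose top was set by replicate 3. The log2 fold change was −0.32 (SE 0.35) and turned to 0.23 (SE 0.19) without Vehicle replicate 3. Cd81 (chr7:143052750-143067930, plus strand) was at 2721, 2259 and 2510.0 in Vehicle and 2651, 2290.0 and 2476 in BML-260. The groups of Cd81 overlapped almost fully, with means of 2497 ± 231 and 2472 ± 181 (SD, n = 3) and a log2 fold change of −0.02 (SE 0.14).

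Cd63 encodes the tetraspanin of late endosomes, lysosomes and exosomes and binds TIMP1 at the cell surface. Its gene lies at chr10:128896231-128912822 on the plus strand. Its normalized counts were 1937, 1291 and 2593 in Vehicle and 1710.3, 1815 and 1492 in BML-260. The BML-260 values again lay within the Vehicle range, with Vehicle replicate 3 highest and replicate 2 lowest of all 6. The log2 fold change was −0.22 (SE 0.23), against 0.04 (SE 0.18) without Vehicle replicate 3 and −0.44 (SE 0.18) without Vehicle replicate 2.

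Cd151 encodes the tetraspanin that binds laminin-binding integrins, including the integrin α7β1 of muscle fibers. At chr7:141467362-141471481 on the plus strand, it is the shortest of the 10 genes. Its normalized counts were 3665, 2829.8 and 2818 in Vehicle and 2962, 3235 and 3142 in BML-260. Only Vehicle replicate 1 stood above the other libraries, and the group means of 3104 ± 486 and 3113 ± 139 (SD, n = 3) differed by less than the spread in each group.

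Tspan3 (chr9:56135884-56161070, minus strand) was at normalized counts of 5092, 5027 and 3309 in Vehicle and 5273, 5787 and 5521 in BML-260. The 3 BML-260 libraries were all above the 3 Vehicle libraries, but the gap between the nearest libraries of the 2 groups was small beside the distance of Vehicle replicate 3 from the rest. The log2 fold change was 0.30 (SE 0.19) and 0.12 (SE 0.13) without that library. In TPM the groups of Tspan3 overlapped, at 104, 98.0 and 93.7 in Vehicle and 98.1, 121 and 116 in BML-260.

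Tspan4 and Tspan9 encode the pair closest to each other in sequence among the 10, and their fold changes had opposite signs. Tspan4, known as a component of migrasomes (chr7:141475236-141493427, plus strand), was at normalized counts of 543, 522 and 717 in Vehicle and 490.0, 438 and 508 in BML-260. All BML-260 libraries were below all Vehicle libraries, by a small margin. The log2 fold change was −0.31 (SE 0.17) and −0.16 (SE 0.15) without Vehicle replicate 3, and in TPM the groups overlapped. In the annotation Tspan4 overlaps Chid1, a protein-coding gene on the opposite strand, so its counts are uncertain without a known strand setting. Cd9, Cd81, Cd151 and Tspan12 also overlap noncoding genes on the opposite strand, and the same limit applies to them. Tspan9 (chr6:127961396-128143578, minus strand), a tetraspanin also found on platelets, was at 1631, 1604 and 859.6 in Vehicle and 1601, 1769 and 1933 in BML-260. Here Vehicle replicate 3 was far below the other 5 libraries, which lay close together. The log2 fold change of 0.37 (SE 0.24) became 0.12 (SE 0.14) without it.

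Tspan12 encodes a co-receptor in Norrin and Frizzled-4 signaling of endothelial cells. Its normalized counts (chr6:21771391-21879596, minus strand) were 688, 529.9 and 424 in Vehicle and 895, 855 and 513 in BML-260. BML-260 replicates 1 and 2 were above all Vehicle libraries, and replicate 3 was within the Vehicle range. Its log2 fold change of 0.46 (SE 0.25) was the largest positive one of the 10 genes. It was 0.67 (SE 0.23) without BML-260 replicate 3 and 0.30 (SE 0.22) without Vehicle replicate 3.

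Tspan14 belongs to the tetraspanins that carry the metalloprotease ADAM10 to the cell surface. It was at normalized counts of 332, 272 and 341 in Vehicle and 415, 286 and 315 in BML-260 (chr14:40906427-40967073, minus strand). The groups overlapped, with a log2 fold change of 0.10 (SE 0.19).

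Of the 10 genes, 1 (Cd82) passed a threshold of a 1.3-fold difference or more and an unadjusted p under 0.05, beside 5.75% of all 16188 tested genes. Of all tested genes 4.86% passed with a lower level and 0.896% with a higher level under BML-260. The groups did not overlap for 3 of the 10 (Cd82 and Tspan4 lower, Tspan3 higher), beside 12.1% of all tested genes (6.7% lower and 5.43% higher). The 10 genes were chosen on this contrast, and nothing is read from these counts. The log2 fold changes were negative for 5 and positive for 5 genes, with a median of −0.0079, beside −0.0039 for all tested genes. In edgeR's quasi-likelihood test no gene of the table had an adjusted p under 0.05, while 966 genes had an unadjusted p under 0.05, and in DESeq2's Wald test 95 genes had an adjusted p under 0.05.

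**Figure D3:**
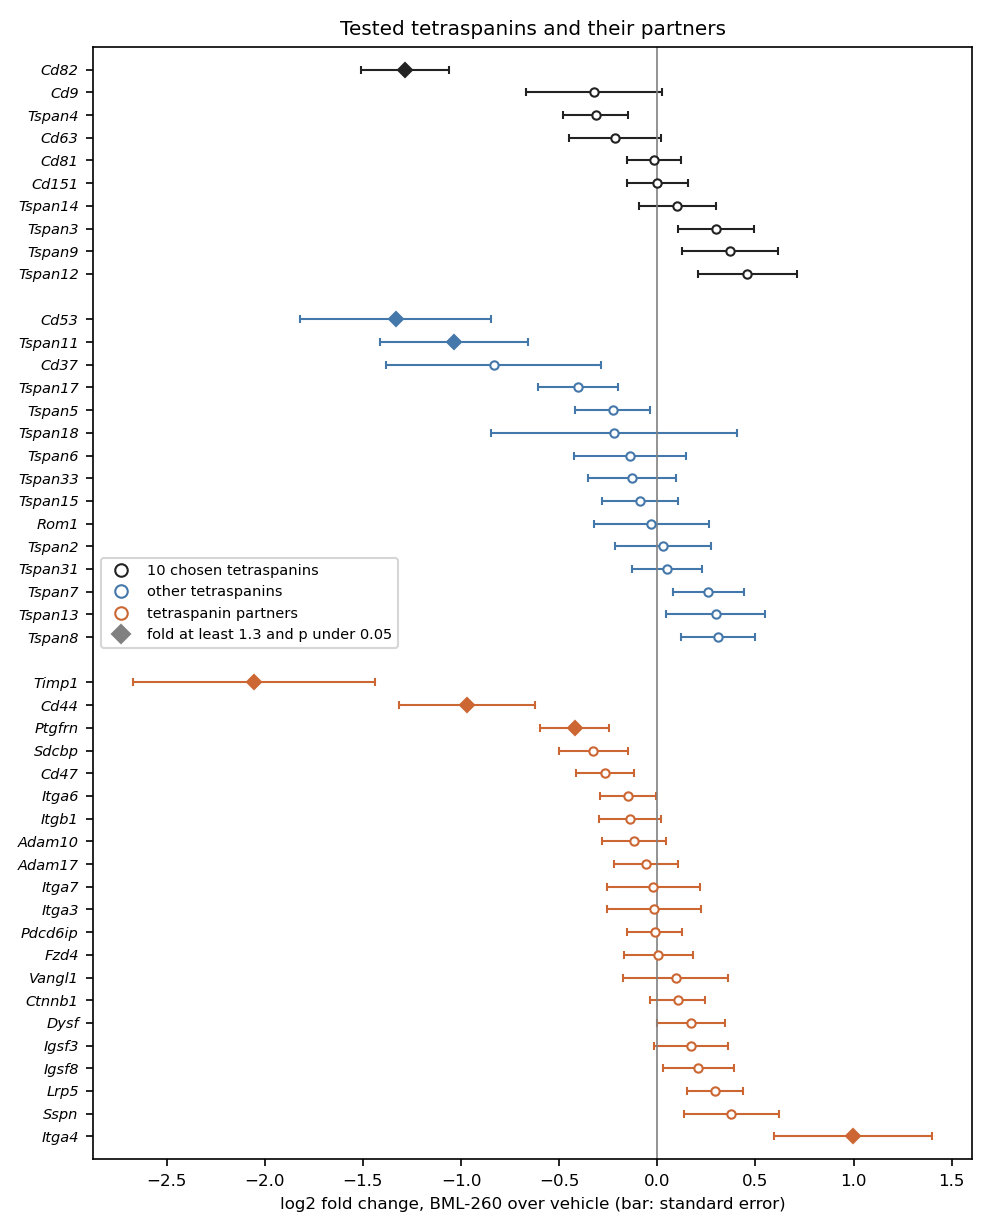
Log2 fold change of BML-260 over Vehicle with its standard error for the 10 tetraspanins (black), 15 other tested tetraspanins (blue) and 21 tested tetraspanin partners (orange); filled diamonds mark genes that passed a 1.3-fold difference and an unadjusted p under 0.05. Cd82 is the only filled symbol among the 10, at −1.29, and the others lie between −0.32 and 0.46.

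Of 23 further tetraspanin genes, 21 were in the count table and 15 had enough counts to be tested. This list and those that follow were also drawn up with earlier results of these data known, so their counts are descriptions. By the same threshold 2 of the 15 were lower with BML-260 and none was higher, beside 4.86% and 0.896% of all tested genes. Their median log2 fold change was −0.13. Cd53, a tetraspanin of leukocytes, was at normalized counts of 121, 122 and 397 in Vehicle and 109, 61.0 and 84.3 in BML-260. The groups did not overlap, but Vehicle replicate 3 alone stood far above the rest. Its log2 fold change was −1.33 (SE 0.49), with an adjusted p of 0.788 in edgeR's quasi-likelihood test, and −0.52 (SE 0.29) without that library, where the threshold was no longer reached. Tspan11 was at 76.3, 67.3 and 144 in Vehicle and 61.4, 40.0 and 39.1 in BML-260. Its log2 fold change of −1.04 (SE 0.38), with an adjusted p of 0.788 in the same edgeR test, became −0.62 (SE 0.33) without Vehicle replicate 3, which also lost the call. Both calls were also lost without BML-260 replicate 2, at −1.14 (SE 0.58) and −0.93 (SE 0.45), and without BML-260 replicate 3, at −1.33 (SE 0.61) and −0.93 (SE 0.45).

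The further tetraspanins with the highest TPM were Tspan8, Tspan7 and Tspan31, none of which passed the threshold. Tspan8 was at 3045, 2179 and 2948 normalized counts in Vehicle and 3168, 4105 and 2877 in BML-260, Tspan7 at 2206, 2006 and 1425 and 2239, 2308 and 2220.4, and Tspan31 at 1032, 921 and 710.0 and 919, 1044 and 802. Of these only Tspan7 had groups that did not overlap, with the BML-260 libraries higher, and its log2 fold change of 0.26 (SE 0.18) was 0.09 (SE 0.13) without Vehicle replicate 3. The 6 genes below the filter were Tspan1, Tspan10 and Prph2, with no count in any library, Upk1b and Upk1a, with at most 2 and 10 counts in a library, and Tspan32, with at most 100.

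Genes whose products bind tetraspanins or work with them were also counted. Of 21 tested partner genes, 3 were lower and 1 was higher with BML-260 by the same threshold, beside 4.86% and 0.896% of all tested genes, with a median log2 fold change of −0.02. Timp1, the inhibitor of metalloproteases that binds CD63, was at normalized counts of 35.3, 40.7 and 142 in Vehicle and 24.2, 11.0 and 17.1 in BML-260. All BML-260 libraries were below all Vehicle libraries, at a log2 fold change of −2.05 (SE 0.62), with an adjusted p of 0.699 in edgeR's quasi-likelihood test, and −1.11 (SE 0.49) without Vehicle replicate 3, where it still passed the threshold. Cd44, the hyaluronan receptor, was at 358, 356 and 812 in Vehicle and 312, 191 and 277 in BML-260. Its log2 fold change was −0.97 (SE 0.35) and, with the call lost, −0.46 (SE 0.22) without Vehicle replicate 3. The call of Cd44 was also lost without BML-260 replicate 2, at −0.78 (SE 0.39), and without BML-260 replicate 3, at −1.02 (SE 0.43).

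Ptgfrn, which encodes EWI-F, the main partner of CD9 and CD81, was at normalized counts of 585, 629 and 769 in Vehicle and 591, 455 and 437 in BML-260. These groups overlapped, and the log2 fold change of −0.42 (SE 0.18) reached the threshold in edgeR's test of all libraries, but not in DESeq2's Wald test, in either limma fit of TPM, or when 1 of 4 libraries was left out. It was −0.45 (SE 0.20) without Vehicle replicate 2, −0.30 (SE 0.17) without Vehicle replicate 3, −0.36 (SE 0.21) without BML-260 replicate 2 and −0.34 (SE 0.20) without BML-260 replicate 3. Itga4, an integrin chain that associates with CD81 and CD82, went the other way, at 1253, 1304 and 403 in Vehicle and 1655, 2534 and 1743 in BML-260. Its log2 fold change was 1.00 (SE 0.40), 0.62 (SE 0.18) without Vehicle replicate 3, and below the threshold at 0.79 (SE 0.46) without BML-260 replicate 2 and 1.08 (SE 0.48) without BML-260 replicate 3. The adjusted p of Cd44, Ptgfrn and Itga4 was 0.788 each in edgeR's quasi-likelihood test. The partners with the highest TPM did not pass the threshold. They were Ctnnb1, with a log2 fold change of 0.11 (SE 0.14), Itgb1, the β1 chain of the integrins that CD151 binds, with −0.14 (SE 0.16), and Itga7, the α7 chain, with −0.02 (SE 0.24).

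Because CD82 is used as a marker of muscle stem cells, the other markers of these cells were set beside it. Of 14 tested markers 2 passed the threshold, both lower with BML-260, beside 4.86% of all tested genes, with a median log2 fold change of −0.06. Pax7, the transcription factor that defines these cells, was at normalized counts of 58.1, 81.3 and 26.9 in Vehicle and 52.7, 31.0 and 84.3 in BML-260. Myf5 was at 37.2, 39.4 and 62.1 and 46.7, 35.0 and 39.1, and Cdh15 (M-cadherin) at 784, 529 and 1392 and 710.4, 666 and 956. Calcr, the calcitonin receptor of quiescent stem cells, was at 18.1, 25.4 and 7.48 and 21.6, 34.0 and 11.0. In none of these 4 genes were the groups separate as they were in Cd82. The log2 fold changes were 0.02 (SE 0.50) for Pax7, −0.20 (SE 0.35) for Myf5, −0.22 (SE 0.32) for Cdh15 and 0.41 (SE 0.61) for Calcr. These standard errors are wider than that of Cd82, so a moderate change in these genes was not resolved. The markers that passed were Sdc4, the matrix receptor syndecan-4, with a log2 fold change of −0.82 (SE 0.31), and Vcam1, an adhesion molecule also made by endothelial cells, with −0.49 (SE 0.16). Both had an adjusted p above 0.05 in edgeR's quasi-likelihood test, at 0.788 and 0.754. Sdc4 was −0.30 (SE 0.13) without Vehicle replicate 3, and its call was lost without that library or without any 1 of the BML-260 libraries, while the call of Vcam1 was lost without BML-260 replicate 3, at −0.40 (SE 0.18). The summed normalized count of the 14 markers was 7230.1 to 12051 in Vehicle and 7151 to 9134 in BML-260, and thus overlapped. Most of this sum came from Itga7, whose product is also an integrin chain of muscle fibers. Itga7 was at 3892, 3807 and 6423 in Vehicle and 4103, 4182 and 5635 in BML-260. The part of stem cells in the level of Cd82 was not tested.

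Markers of the other cells that a whole muscle can hold were counted in the same way. These lists too were drawn up with earlier results of these data known, and their counts are descriptions. Of 11 macrophage markers 10 were lower with BML-260, beside the same 4.86%, at a median log2 fold change of −1.36, and the summed normalized count was 6911 to 19876 in Vehicle and 4236 to 5189.7 in BML-260. Without Vehicle replicate 3, 9 of the 11 passed (7 without BML-260 replicate 2, where Lyz2 and C1qa were among those lost), with a median of −0.67. Lyz2 and C1qa, which had the highest TPM of the list, were at 2212, 2473 and 7651 and 417, 454 and 1294 in Vehicle and at 1722, 1310.0 and 1719 and 348, 203 and 269 in BML-260. Adgre1, which encodes F4/80 and had the smallest p, was at 353, 349 and 379 in Vehicle and 200.5, 116 and 194 in BML-260 (adjusted p = 0.585 in edgeR's quasi-likelihood test). No macrophage marker was at 0 in any library. The part of macrophages in the level of Cd82 was not tested.

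Of 7 tested genes listed as myoblast and regenerating fiber markers, 5 were lower and none higher with BML-260, beside 4.86% and 0.896% of all tested genes. Their median log2 fold change was −1.21, and −0.90 without Vehicle replicate 3. Myf6 (MRF4), with the smallest p of that list, was at 4436, 5458 and 8563 in Vehicle and 2635, 2495 and 2847 in BML-260. This was a separation like that of Cd82, with an adjusted p of 0.553 in edgeR's quasi-likelihood test. Myf6 and Mef2c had mean levels of 138 and 169 TPM. Whether the RNA of the listed genes came from myoblasts, regenerating fibers or mature fibers was not tested. The summed count of the list, most of it from Mef2c and Myh8, overlapped at 49094 to 70004 in Vehicle and 58341 to 62092 in BML-260. Platelet markers were lower in 2 of 6 genes (Itga2b and Ppbp). Adipocyte markers were lower in 1 of 4 (Cfd) and fibroblast markers in 1 of 8 (Col1a1). None of these lists had a gene higher, beside 4.86% lower and 0.896% higher of all tested genes. The adjusted p was 0.635 for Itga2b and 0.788 for Ppbp, Cfd and Col1a1 in edgeR's quasi-likelihood test. In Vehicle the summed counts of the platelet, adipocyte and fibroblast lists were 337 to 763, 5839 to 10089 and 25573 to 41898. In BML-260 they were 211 to 302, 6427 to 7211 and 24286 to 40760.2. Of these sums only that of the platelet list did not overlap between the groups, with BML-260 lower. Most of the adipocyte sum came from Fabp4, at 5610, 7613 and 6531 in Vehicle and 6920, 6113 and 6825 in BML-260. The sum therefore mainly followed this gene, and whether its RNA came from adipocytes was not tested. Cfd was at 174, 239 and 3067 in Vehicle and 212, 209 and 158 in BML-260. No endothelial (8), smooth muscle and pericyte (6), Schwann cell (6) or myofiber (7) marker passed the threshold in either direction. The 8 lymphocyte markers were below the filter, at 0 in at least 1 library each and at most 22 counts. With 1 library left out the counts of lower platelet, adipocyte and fibroblast markers ran from 1 to 3, 0 to 2 and 0 to 2. Cfd no longer passed without Vehicle replicate 3 or any 1 of the BML-260 libraries, Col1a1 without Vehicle replicate 2 or 3 or BML-260 replicate 2 or 3, and Ppbp without Vehicle replicate 2 or BML-260 replicate 1 or 2. Without Vehicle replicate 3 the fibroblast marker Pi16 and 2 of the 6 Schwann cell markers, among them Mbp, were higher with BML-260. The median log2 fold change of the Schwann list was then 0.46, against −0.30 with all libraries. Without Vehicle replicate 2, 1 smooth muscle and pericyte marker was higher with BML-260. The part of these cells in the level of Cd82 was not tested either.

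**Figure D4:**
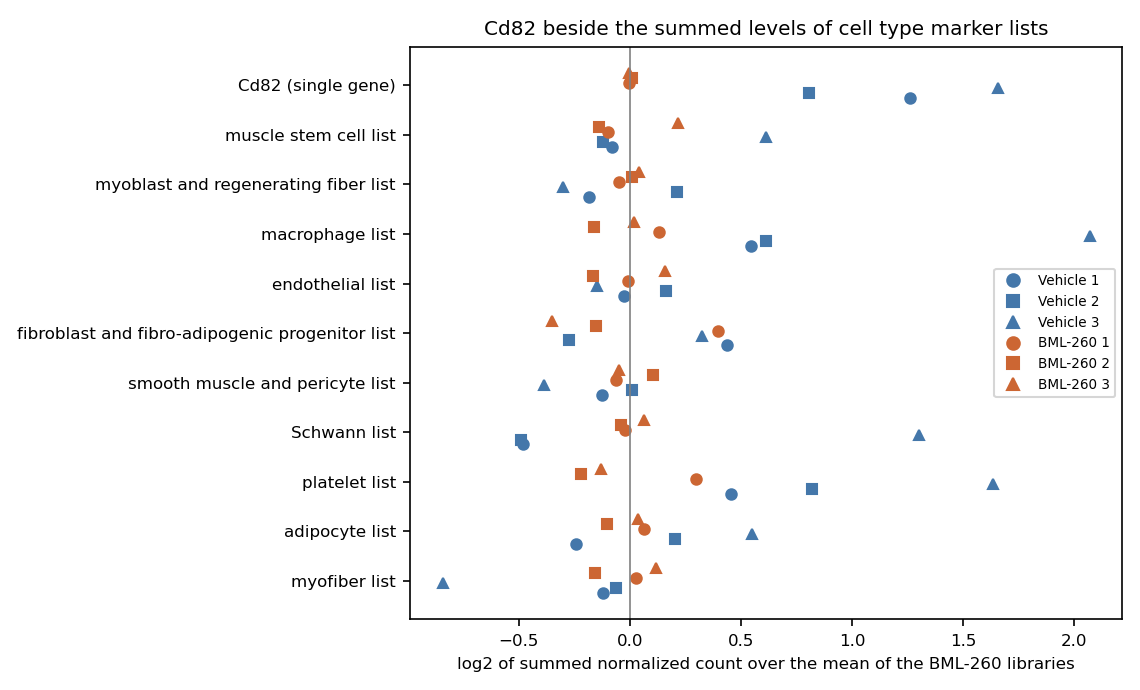
Log2 of the normalized count of Cd82, and of the summed normalized count of each marker list, over the mean of the 3 BML-260 libraries (blue, Vehicle; orange, BML-260; circle, square and triangle, replicates 1, 2 and 3). The Vehicle libraries lie at 0.80 to 1.66 for Cd82 and at 0.54 to 2.07 for the macrophage list. They lie at 0.46 to 1.63 for the platelet list, and in all of these they are above every BML-260 library. The stem cell list has Vehicle replicates 1 and 2 among the BML-260 libraries, and the remaining lists overlap as well. Most of the stem cell sum comes from Itga7, and most of the adipocyte sum from Fabp4.

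The genes whose pattern over the 6 libraries was most like that of Cd82 were taken from 10632 tested genes with a mean normalized count of at least 100. The highest Pearson correlations of log2 normalized counts were those of Csf2rb (0.992), Porcn (0.991), Gbp3 (0.988), Bola2 (0.985) and Tgtp2 (0.982), which are descriptions over 6 libraries of 2 groups. Csf2rb, a receptor chain of myeloid cells for GM-CSF, was at normalized counts of 269.8, 154 and 491 in Vehicle and 66.5, 82.0 and 75.8 in BML-260. Gbp3, an interferon-inducible GTPase, was at 418, 359.6 and 464 and 244, 261 and 275, and Tgtp2, another such GTPase, at 736, 400.3 and 739 and 247, 240.0 and 236. As in Cd82, the BML-260 libraries of each lay close together and below all Vehicle libraries, of which replicate 2 was the lowest. Such likeness is what a choice by correlation with Cd82 selects for, and nothing is read from it. Tgtp2 has a nearly identical copy, Tgtp1, and its counts are uncertain for that reason. Porcn and Bola2 had the Vehicle libraries in the order of Cd82 and above all BML-260 libraries. Their differences were smaller, at log2 fold changes of −0.13 (SE 0.19) and −0.36 (SE 0.14).

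The sequence before the start of Cd82 is shown because it is the only one of the 10 genes whose groups were far apart. RefSeq has 4 start windows for Cd82, each from 250 bases before to 50 after a start. The one farthest upstream, chr2:93462901-93463200 on the minus strand (GRCm38.p6, 60.7% G and C), held 2 GC boxes (GGGCGG, searched on both strands), in capitals.
Cd82 start window: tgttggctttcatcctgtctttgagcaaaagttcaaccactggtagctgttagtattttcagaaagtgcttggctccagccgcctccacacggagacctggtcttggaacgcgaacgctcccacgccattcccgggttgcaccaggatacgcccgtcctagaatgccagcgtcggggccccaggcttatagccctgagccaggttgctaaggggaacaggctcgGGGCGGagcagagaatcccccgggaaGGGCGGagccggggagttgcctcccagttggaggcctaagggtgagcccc
A GC box was found in 2 of the 4 Cd82 windows, in 9 of the 19 windows of the 10 genes and in 35.7% of all 32851 windows. The letters TGANTCA (AP-1) were in none of the Cd82 windows and in 7.81% of all windows. TGTTTAC (FOXO) was in none of the 19 windows and in 3.65% of all. CANNTG (E-box), which can overlap the others, was in 3 of the 4 Cd82 windows and in 72.3% of all. Such matches describe the letters only.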

How the data were processed

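TA muscle RNA was extracted with TRIzol and made into libraries with a stranded total RNA kit, per the labels. According to the submitters' processing notes and the methods, the authors trimmed reads with Trimmomatic 0.38, mapped them to mm10 with HISAT2 2.1.0 and Bowtie2 2.3.4.1, and assembled transcripts with StringTie 2.1.3b. The authors deposited raw counts per gene for the 6 libraries in 1 table, and TPM, scaled for length and library total, in a table for each library. Whether counting used strand, and what became of reads with several matches, is not given in the sources used here, and both can change the counts of overlapping or duplicated genes. The age of 24 months is the label's. The methods give a range that starts there, and the study's results text gives an older age for these mice. A symbol was found for 45718 of 45777 count genes.

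Counts were tested in R 4.3.3 with edgeR 4.0.16 (filterByExpr, TMM, quasi-likelihood F test, Benjamini-Hochberg adjustment over 16188 genes). A standard error is the log2 fold change over the square root of F. Called genes had a fold change of at least 1.3 and an unadjusted p under 0.05, and the adjusted p is given beside it. Normalized counts were divided by size factors of DESeq2 1.42.0. Alternatives were DESeq2's Wald test, limma 3.58.1 on log2(TPM + 1) and log2(TPM + 0.1), other scalings and filters, a replicate block, and each library left out. The code was tested on simulated data. Each group has 3 libraries of 39522890 to 56998875 counts. With 3 against 3, an exact permutation test cannot give a p under 0.1, so none was used. Labels gave the groups and no batch.

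The 10 genes and all gene lists were chosen with earlier results of these data known. Named genes were the 10, all called genes and the 3 with the highest TPM among further tetraspanins and partners. Of each marker list these were up to 2 by TPM, the one with the smallest p, and Pax7, Myf5, Cdh15 and Calcr for stem cells. Genes named outside this rule (those below the filter, Tspan17, Tspan18, Myh8, Ppbp and Pi16) were chosen after their values were seen. Coding sequences came from GENCODE M21 and start windows from RefSeq, both on GRCm38, and all 10 genes matched. One marker gene is not reported by name here.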

Additional observations from a re-analysis of the deposited data

How the results depend on the processing

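For Cd82 the log2 fold change, a description with no test, ran from −1.47 (without Vehicle replicate 2) to −1.06 (without Vehicle replicate 3) over the 14 alternatives run. The median log2 fold change of the 10 tetraspanins was −0.142 on log2(TPM + 1) and −0.144 on log2(TPM + 0.1), where the median of all genes shifted to −0.10 and −0.14 and 7 of the 10 were negative, and it ran from −0.069 to 0.097 when 1 library was left out. Of the 10 genes, 2 were called under the replicate block (Cd82 and Tspan12), and 1 to 2 when 1 library was left out: Tspan12 was added without Vehicle replicate 1 or BML-260 replicate 3, and Cd63 without Vehicle replicate 2. Among further tetraspanins 1 (Tspan17) was called on log2(TPM + 1), and 0 to 3 with 1 library left out, with 0 without BML-260 replicate 2 or 3. Among partners the count ran from 1 to 5 with 1 library left out, with only Timp1 called without BML-260 replicate 2 or 3. Over all genes, 1416 were called with no filter, 503 on log2(TPM + 1), and 503 (without BML-260 replicate 2) to 2223 (without Vehicle replicate 1) with 1 library left out. The macrophage count without Vehicle replicate 3 was an alternative chosen after seeing the data.

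The labels number the replicates but name no pairing. The deviations of same-numbered libraries from their group means correlated at 0.137, 0.0514 and 0.101, and each library correlated best with its own number. Those of different-numbered libraries correlated at −0.106 to −0.0154. Whether the numbers pair the samples was thus not settled, and the main fit used no pairing. Under the replicate block 1057 genes were called, against 931 without it, and the call of Ptgfrn was lost. At about 158 to 816 counts per library for Cd82, small differences between libraries were not resolved.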

Other observations

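Several tetraspanin genes lie near each other, and the values of such neighbours are given as measured. Cd151 and Tspan4 are 3.8 kb apart on chromosome 7, both on the plus strand, with median levels of 66.4 and 11.3 TPM over the 6 libraries. The log2 fold change was 0.00084 (SE 0.15) for Cd151 and −0.31 (SE 0.17) for Tspan4. Tspan9 and Tspan11 are 8.4 kb apart on chromosome 6. Tspan9 was at 859.6 to 1933 normalized counts and Tspan11 at 39.1 to 144, and Vehicle replicate 3 was the lowest of the 6 libraries for Tspan9 and the highest for Tspan11. Cd82 is 84.5 kb from Tspan18 on chromosome 2. Tspan18 was at normalized counts of 39.1, 40.7 and 14.2 in Vehicle and 41.5, 9 and 29.3 in BML-260, so that its groups overlapped where those of Cd82 did not. The difference between the neighbours in each pair was not tested.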
